A study of Mus musculus with 6 samples.

Results

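Fatty acid oxidation and ketone synthesis were examined through 42 genes, taken by name from the 28601 genes of the deposited liver table. They encode the enzymes and carriers that activate fatty acids, carry them into mitochondria and peroxisomes, shorten them by beta-oxidation and turn the product into ketone bodies. The tested mice carried peroxiredoxin 1 (PRDX1) with serine in place of cysteine at residue 52 (Cys52Ser), the residue through which this enzyme reduces hydrogen peroxide. They were compared with wild-type (WT) mice, with 3 male mice of each genotype. All 6 mice, controls included, were put at 8 weeks of age on CDAHFD, a high-fat diet without choline in which amino acids replace protein, and titles and design give 8 weeks of feeding. The treatment field of the samples instead counts 11, 12 and 13 weeks in Cys52Ser and 8, 9 and 10 weeks in WT, and if it were literally true, genotype and diet time could not be told apart. The strain and whether the substitution was homozygous are not given in the sources used here. No group on a normal diet was analysed here, so no value below shows what the diet itself did.

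In the liver, a free fatty acid is first joined to coenzyme A by acyl-CoA synthetases. Long chains then cross into mitochondria as carnitine esters, while very long and branched chains start in peroxisomes, and each round of beta-oxidation runs through a dehydrogenase or oxidase, a hydratase, a second dehydrogenase and a thiolase. Mitochondrial acetyl-CoA can leave the liver as ketone bodies. The nuclear receptor PPAR-alpha, paired with RXR, switches on many of these genes, and choline deficiency is a standard way of making mouse liver store fat because triglyceride export needs phosphatidylcholine.

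The libraries held 56473479 to 73900923 counts in Cys52Ser and 53318196 to 65465225 in WT. The 42 genes made up 1.5% to 1.62% of all counts in Cys52Ser and 1.34% to 1.51% in WT. The liver label fits the hepatocyte markers, which were abundant in all 6 libraries: albumin alone took 8.08% to 8.49% of counts in Cys52Ser and 3.6% to 5.55% in WT. Scaling factors by TMM, a method that brings the bulk of genes to a common level, were 0.814 to 0.963 in Cys52Ser and 1.05 to 1.21 in WT. Levels below are CPM, each library's counts brought to a common total and scaled by TMM, unless another scale is named. The 6 libraries come from 6 mice.

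All 42 genes passed the filter on low counts, and most of them had higher levels in Cys52Ser livers. By edgeR's quasi-likelihood test, with p-values adjusted over all 18648 tested genes, 8 of 42 rose (19.0%) and 1 fell (2.38%). Over all tested genes 2.52% rose and 2.46% fell, 4.98% together. The 8 that rose were Acsl1, Slc27a2, Slc25a20, Cpt2, Acad11, Decr2, Abcd3 and Hacl1, and the gene that fell was Crot. Log2 fold changes (Cys52Ser over WT) were positive for 39 of the 42 (92.9%, against 49.7% of all tested genes) and negative for 3 (7.14%, against 50.3%), a split that moved to 30 and 12 with library totals alone, as described below. Their median was 0.48, while that of all tested genes was 0.00. Every Cys52Ser library lay above every WT library for 30 of the 42 genes (71.4%, against 14.4% of all tested genes). The reverse held for 2 of them (4.76%, against 15.2%). Over all tested genes the groups did not overlap in 29.7%. On the deposited FPKM, which carry no TMM factor, 13 of the 42 lay above in all libraries (31%, against 4.71% of all tested genes) and 3 lay below (7.14%, against 37.7%). Statements below that groups do or do not overlap are on the CPM scale. On that scale the 42 genes also shared an order of libraries, so they are not independent of each other. Of them, 33 were highest in Cys52Ser replicate 3 and 33 were lowest in WT replicate 1. Those libraries had the lowest and highest TMM factors, 0.814 and 1.21. The matching shares over all tested genes were not computed. At an unadjusted p of 0.05, 31 of the 42 passed (73.8%, against 22.4%).

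**Figure D1:**
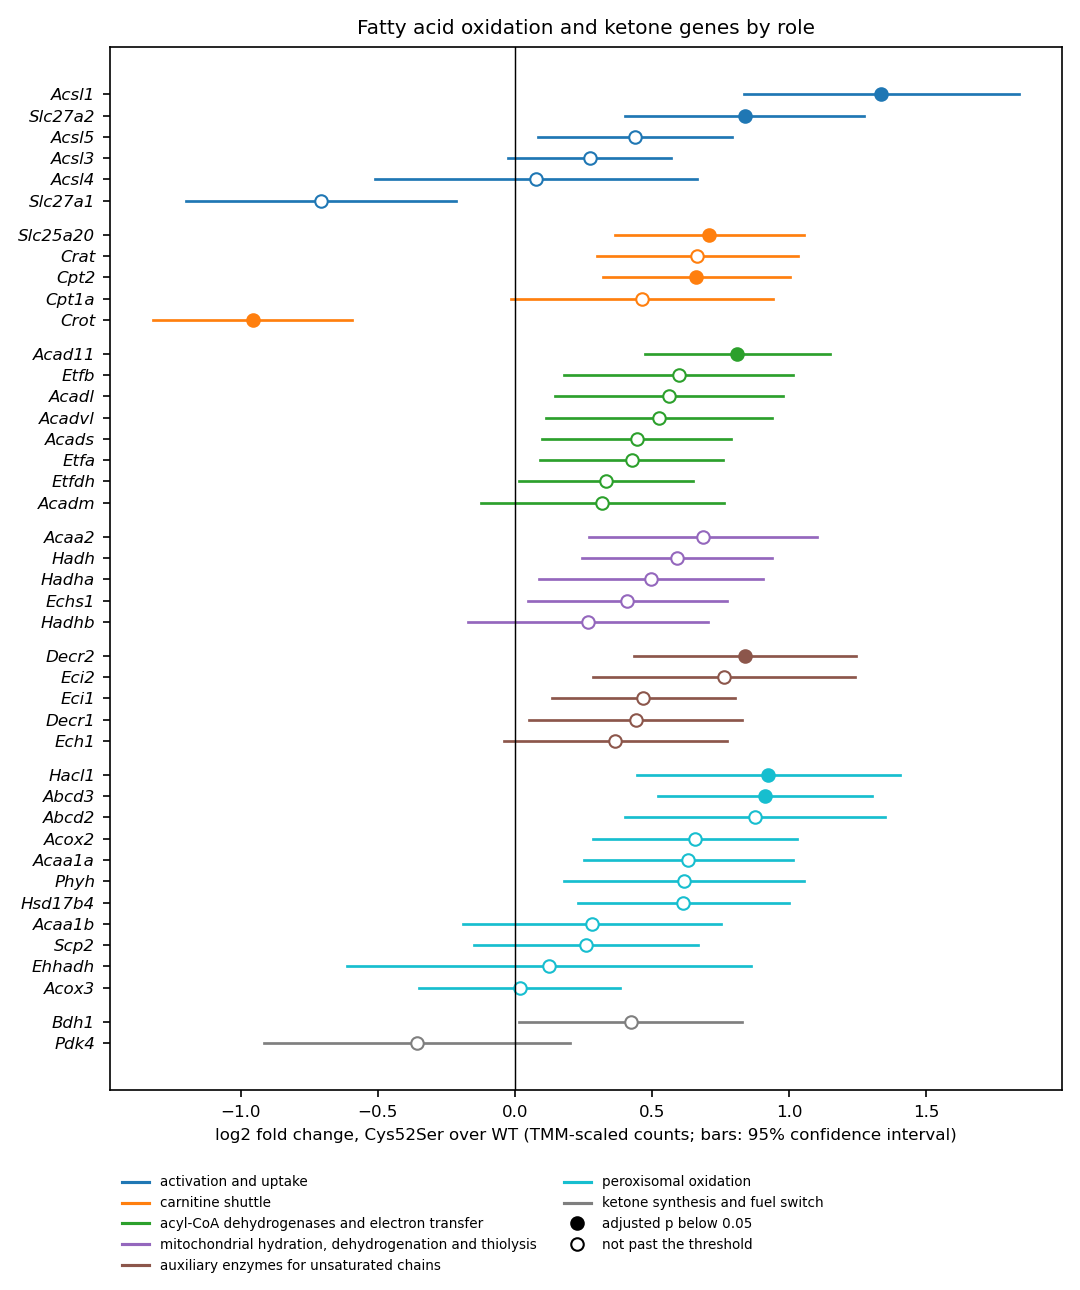
Log2 fold change of each of the 42 genes, Cys52Ser over WT, with its 95% confidence interval (n = 3 mice each). Genes are grouped by role, filled points passed the edgeR test at an adjusted p below 0.05, and open points did not. Crot stands alone among filled points on the negative side, at -0.96.

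The size of these differences depended on how libraries were made comparable. With library totals alone, the median of all genes moved to -0.35 and that of the 42 genes to 0.13. Their distance from the bulk of genes was 0.48 with totals and 0.49 with TMM. A change of scaling moves all genes nearly alike, so these distances had to be close and show nothing further. In other fits the distance did vary. It was 0.37 without WT replicate 1, 0.60 without Cys52Ser replicate 2 and 0.23 by limma on unfiltered log2(FPKM + 0.5). With totals, 9 of the 42 log2 fold changes had turned from positive to negative: those of Acsl3, Acsl4, Acadm, Etfdh, Hadhb, Acox3, Ehhadh, Acaa1b and Scp2. Over all genes 9.71% of the calls were then higher ones, against 50.5% with TMM. The calls of Acsl1, Slc27a2, Acad11, Decr2 and Abcd3 as higher and of Crot as lower were made under each of these scalings. Those of Cpt2, Slc25a20 and Hacl1 were not made with totals (edgeR adjusted p = 0.0857, 0.0507 and 0.0852), while Slc27a1 was then called lower (edgeR adjusted p = 0.0443).

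**Figure D2:**
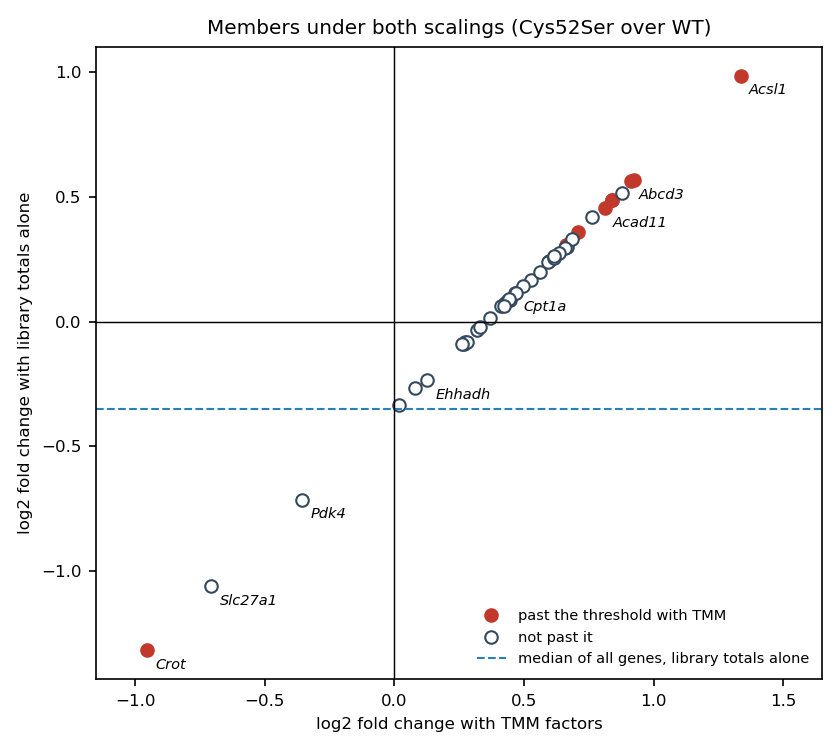
Log2 fold change (Cys52Ser over WT) of each of the 42 genes with TMM factors on the horizontal axis and with library totals alone on the vertical axis. All points shift down together by about the shift of the median of all genes to -0.35 (dashed line), and Acsl1 at the top and Crot at the bottom keep the ends of the range.

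Markers of several cell types also differed between the groups, some higher and others lower in Cys52Ser. In bulk tissue fewer cells of a type and less RNA per cell cannot be told apart. The summed level of 11 hepatocyte markers was 124200 to 153200 CPM in Cys52Ser and 51560 to 84360 CPM in WT. All 11 log2 fold changes were positive, with a median of 0.72, and 2 genes rose; with library totals alone all 11 were positive too, with a median of 0.38. Macrophage markers summed to 1460 to 1744 CPM in Cys52Ser and 3095 to 4883 CPM in WT, with 4 of 10 lower. Stellate cell markers summed to 1007 to 1257 CPM in Cys52Ser and 1655 to 2819 CPM in WT, with 5 of 12 lower. Cholangiocyte markers summed to 161 to 460.7 CPM in Cys52Ser and 645.2 to 1362 CPM in WT, with 2 of 10 lower. The medians of these lists were -0.997, -0.91 and -1.49 with TMM and -1.36, -1.27 and -1.84 with totals. Negative with TMM were 9 of 10 macrophage, 10 of 12 stellate cell and 9 of 10 cholangiocyte markers. Endothelial markers had 3 of 10 higher with TMM and none with totals. No marker of lymphocytes, red blood cells, skeletal muscle or adipocytes passed with TMM, and 1 adipocyte marker was lower with totals. The stellate cell markers Acta2 and Des and the cholangiocyte marker Krt19 had positive fold changes and were high in Cys52Ser replicate 2. In Cys52Ser replicates 1, 2 and 3, Acta2 was at 16.5, 90.4 and 9.86 CPM. Skeletal muscle markers there summed to 8.09, 32.6 and 0.63 CPM, against 2.86 to 5.48 CPM in WT. Whether this piece held other tissue was not tested.

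Ratios within a library do not depend on the scaling between libraries, and a few were added after the values had been seen. The summed CPM of the 42 genes was 12.9%, 12.6% and 13% of that of the hepatocyte markers in Cys52Ser, against 21.5%, 18.5% and 16.3% in WT. Albumin alone carried 67% to 69.1% of the marker sum in Cys52Ser and 57.8% to 64.8% in WT. Without it the ratios were 39%, 40.7% and 40.8% in Cys52Ser, against 50.9%, 52.5% and 44.2% in WT, still lower in every Cys52Ser library but by less. Their sum over that of 22 genes of the tricarboxylic acid (TCA) cycle and respiratory chain was 2.82, 2.45 and 2.53 in Cys52Ser and 2.61, 2.54 and 2.63 in WT, and the groups overlapped. In those 22 genes the median log2 fold change was 0.48, with 22 positive (18 with library totals alone), and 2 genes rose. How much of the difference in the 42 genes goes with the cell types was not tested.

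**Figure D3:**
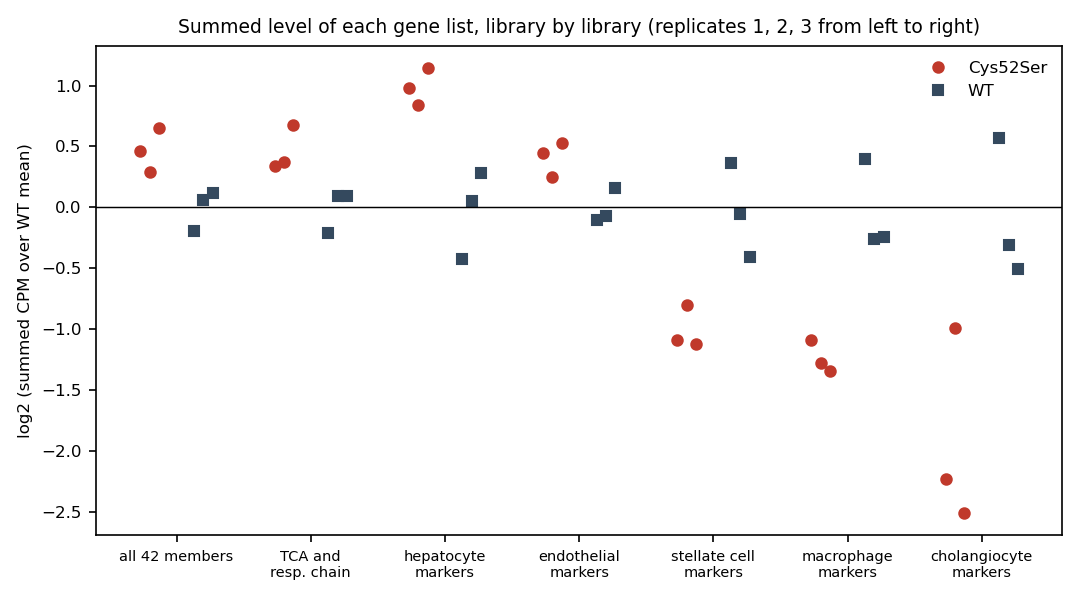
Summed CPM of each gene list in every library, as log2 of its ratio to the WT mean (red circles Cys52Ser, dark squares WT; replicates 1, 2 and 3 from left to right). In Cys52Ser the oxidation genes and the TCA and respiratory chain genes lie above WT by less than the hepatocyte markers, while stellate, macrophage and cholangiocyte markers lie below WT.

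Activation and uptake were measured by 6 genes, of which 2 rose. Acsl1 encodes the main long-chain acyl-CoA synthetase of hepatocytes and, with TMM, had the largest fold change of the 42 genes. It stood at 1123, 741 and 885 CPM in Cys52Ser replicates 1, 2 and 3, against 365, 294 and 429 CPM in WT. Each Cys52Ser library exceeded the highest WT library by a clear margin. Acsl1 averaged 916 ± 193 CPM in Cys52Ser and 363 ± 67.7 CPM in WT (SD, n = 3 each), 2.53-fold higher, with a log2 fold change of 1.34 ± 0.21 (SE; edgeR adjusted p = 0.0243).

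Slc27a2 encodes a fatty acid transport protein of the liver that also activates very long chains. Its levels were 1476, 1134 and 1483 CPM in Cys52Ser, against 638, 772 and 878 CPM in WT, with no overlap. The log2 fold change was 0.84 ± 0.19 (SE; edgeR adjusted p = 0.0499), which lies just under the threshold.

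The other synthetases and transporters did not pass. Acsl5, a synthetase of mitochondrial and endoplasmic reticulum membranes, had a log2 fold change of 0.44 (edgeR adjusted p = 0.142). Acsl3, found on lipid droplets, had 0.27, and Acsl4, which prefers arachidonic acid and is also used by non-parenchymal cells, had 0.08. The CPM ratio of Acsl1 to Acsl5 within a library was 3.44, 2.41 and 2.44 in Cys52Ser, against 1.79, 1.12 and 1.6 in WT, so Acsl1 was also higher relative to a synthetase of its own family. Slc27a1, a transporter best known from muscle and fat, was at 18.1, 20.6 and 14.3 CPM in Cys52Ser, against 37.1, 25.9 and 23.5 CPM in WT. Its groups did not overlap, and its log2 fold change was -0.71 ± 0.21 (SE; edgeR adjusted p = 0.101).

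The carnitine shuttle held the only member that fell. Crot encodes the peroxisomal carnitine octanoyltransferase, which prepares shortened chains for export from the peroxisome. It was at 370.0, 282 and 363 CPM in Cys52Ser, against 637, 704 and 628 CPM in WT. All Cys52Ser libraries lay far below all WT libraries. Crot averaged 338 ± 48.9 CPM in Cys52Ser and 656 ± 41.9 CPM in WT (SD, n = 3 each), 1.94-fold lower, with a log2 fold change of -0.96 ± 0.15 (SE; edgeR adjusted p = 0.0245). In FPKM, the deposited level per transcript length, Crot averaged 48.3 ± 4.33 in Cys52Ser and 120.3 ± 13.04 in WT (SD, n = 3 each). By mean FPKM it ranked 24 of the 42 genes in Cys52Ser and 7 in WT.

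The other carnitine genes had positive fold changes, with TMM and with library totals alone. Slc25a20, the carrier that exchanges acylcarnitine for carnitine across the inner mitochondrial membrane, was at 130.2, 122 and 155 CPM in Cys52Ser, against 69.7, 87.9 and 91.2 CPM in WT. It rose 1.64-fold (edgeR adjusted p = 0.0435). Cpt2, which turns the imported acylcarnitine back into acyl-CoA, was at 139, 139 and 175 CPM in Cys52Ser, against 82.1, 104 and 101 CPM in WT. It rose 1.58-fold (edgeR adjusted p = 0.0494). The groups overlapped for neither gene.

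Cpt1a, the outer-membrane transferase that controls entry of long chains, was at 704, 493 and 605 CPM in Cys52Ser, against 338, 487 and 481 CPM in WT. The lowest Cys52Ser library, replicate 2, was close to the higher WT libraries. The log2 fold change was 0.46 ± 0.20 (SE), with a 95% confidence interval from -0.01 to 0.94 (edgeR adjusted p = 0.234), and with library totals alone it was 0.12. Crat, the carnitine acetyltransferase, was at 76.0, 71.9 and 90.9 CPM in Cys52Ser, against 48.9, 59.7 and 41.95 CPM in WT, without overlap (log2 fold change 0.67; edgeR adjusted p = 0.0577). The CPM ratio of Crot to Cpt2 within a library was 2.65, 2.02 and 2.07 in Cys52Ser, against 7.76, 6.79 and 6.22 in WT. That of Crot to Crat was 4.87, 3.92 and 3.99 in Cys52Ser, against 13, 11.8 and 15 in WT.

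**Figure D4:**
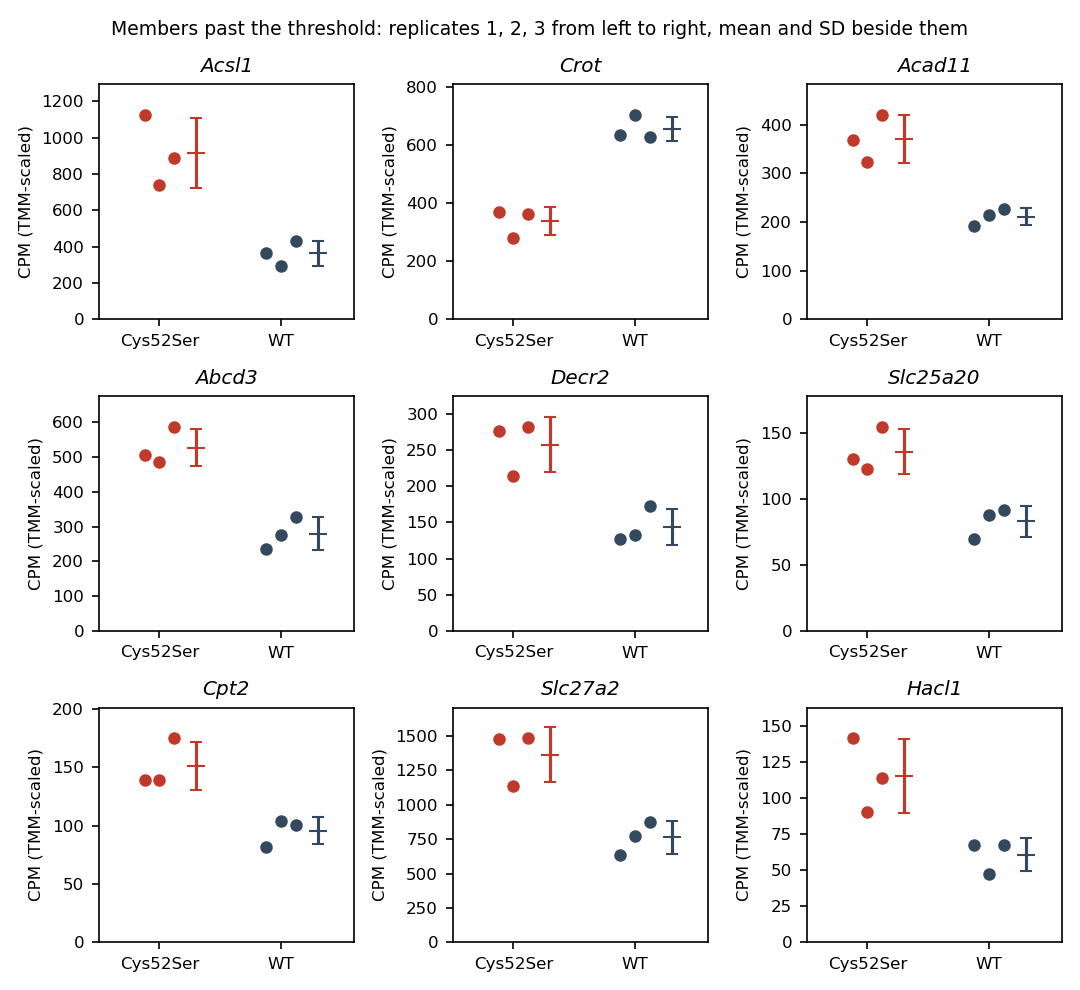
CPM in each mouse for the 9 genes past the edgeR threshold, ordered by p (red Cys52Ser, dark WT; mean and SD beside the points, n = 3 each). The groups do not overlap in any panel, and Crot is the only one with Cys52Ser below WT.

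Promoter sequence is shown for Acsl1 and Crot, the genes with the largest called changes in each direction, for Abcd3, the gene of the peroxisomal oxidation group with the smallest p, and for Slc27a2, chosen because it alone among the genes with a promoter sequence held a PPAR-type element there. RefSeq promoters on GRCm38.p6, reaching from 250 bases before to 50 after a start, were matched by symbol for 37 of the 42 genes (43 promoters). The first 250 bases of each chosen promoter are given on the strand of the gene, with CCGCCC boxes (either strand) and a partial PPAR-type element (AGGTCA, any 1 base, then AGG; either strand) in capitals. The windows are chr8:46470787-46471036 on the plus strand for Acsl1, chr3:121815303-121815552 on the minus strand for Abcd3, chr2:126552774-126553023 on the plus strand for Slc27a2 and chr5:8997147-8997396 on the minus strand for Crot.
Acsl1: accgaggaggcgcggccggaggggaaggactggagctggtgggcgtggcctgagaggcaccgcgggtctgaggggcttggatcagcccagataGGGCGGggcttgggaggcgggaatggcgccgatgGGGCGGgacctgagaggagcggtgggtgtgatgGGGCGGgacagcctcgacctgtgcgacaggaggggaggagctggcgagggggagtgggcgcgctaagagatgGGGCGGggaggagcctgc
Abcd3: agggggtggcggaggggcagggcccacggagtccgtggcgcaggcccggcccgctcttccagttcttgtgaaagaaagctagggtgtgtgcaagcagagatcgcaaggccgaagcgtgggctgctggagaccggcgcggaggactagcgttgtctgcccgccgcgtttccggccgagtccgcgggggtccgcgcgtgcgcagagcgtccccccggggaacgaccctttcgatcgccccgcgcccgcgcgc
Slc27a2: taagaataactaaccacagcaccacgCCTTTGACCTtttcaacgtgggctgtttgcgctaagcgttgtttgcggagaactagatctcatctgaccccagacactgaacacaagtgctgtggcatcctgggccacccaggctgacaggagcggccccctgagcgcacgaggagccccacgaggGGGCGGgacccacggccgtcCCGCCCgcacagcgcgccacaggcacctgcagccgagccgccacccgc
Crot: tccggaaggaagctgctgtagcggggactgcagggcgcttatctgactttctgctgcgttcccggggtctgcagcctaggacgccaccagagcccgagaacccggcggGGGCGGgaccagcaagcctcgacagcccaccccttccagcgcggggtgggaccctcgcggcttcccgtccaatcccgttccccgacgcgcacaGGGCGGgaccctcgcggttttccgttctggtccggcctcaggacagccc

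The windows end at the RefSeq start, and by the gene coordinates of GENCODE M21 that of Slc27a2 lies wholly and that of Crot mostly inside the gene. The CCGCCC box stood 4 times in the window of Acsl1, 2 times each in those of Slc27a2 and Crot, and not in that of Abcd3, so it was found at genes that rose and at the gene that fell. At Slc27a2 the element read CCTTTGACCT, part of a direct repeat with 1 base between, the kind of site that PPAR-alpha with RXR binds. Slc27a2 was the only one of the 37 genes with this element, and 0.658% of all 32851 mouse promoters in the table held it. The full direct repeat of AGGTCA with 1 base between was in 0 of the 43 promoters and in 0.0396% of all. CCGCCC was in 29 of the 43 and in 35.7% of all, and TATAAA in 0 of the 43 and in 13.6% of all. These are matches of letters, with no measurement of binding.

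Acyl-CoA dehydrogenases and the electron transfer from them were covered by 8 genes, of which 1 rose. All 8 fold changes were positive with TMM and 6 with library totals alone. Acad11, an acyl-CoA dehydrogenase acting on long chains, was at 370, 323 and 420 CPM in Cys52Ser, against 193, 215 and 226 CPM in WT. The lowest Cys52Ser library lay well above the highest WT library. Acad11 rose 1.75-fold, with a log2 fold change of 0.81 ± 0.14 (SE; edgeR adjusted p = 0.0314). A protein-coding gene model overlaps Acad11 on the same strand in GENCODE M21 and has no row of its own in the table used here, so the counts of Acad11 are uncertain.

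The chain-length specific dehydrogenases did not pass. Acadl (long chains), Acadvl (very long chains), Acads (short chains) and Acadm (medium chains) had log2 fold changes of 0.56, 0.53, 0.44 and 0.32, with edgeR adjusted p of 0.116, 0.134, 0.131 and 0.380. Acadm was at 373, 382 and 496 CPM in Cys52Ser, against 265, 378 and 359 CPM in WT, so the groups overlapped. With library totals alone its log2 fold change was -0.03. Etfa and Etfb, which form the electron transfer flavoprotein that takes electrons from these enzymes, had 0.43 and 0.60. Etfdh, which passes the electrons to ubiquinone, had 0.33 (edgeR adjusted p = 0.203) and -0.02 with totals.

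None of the 5 genes for the later mitochondrial steps passed, and all 5 fold changes were positive with TMM and 4 with library totals alone. Acaa2, the thiolase that ends each round, was at 735, 727 and 935 CPM in Cys52Ser, against 411, 549 and 530 CPM in WT (log2 fold change 0.69 ± 0.18, SE; edgeR adjusted p = 0.0731). Hadh, the dehydrogenase for short and medium chains, was at 379, 364 and 450 CPM in Cys52Ser, against 234, 265 and 292 CPM in WT (0.59 ± 0.15, SE; edgeR adjusted p = 0.0667). For each of these genes every Cys52Ser library was above every WT library. Hadha and Hadhb encode the alpha and beta subunits of the trifunctional protein for long chains. Hadha was at 350, 362 and 442 CPM in Cys52Ser, against 225, 323 and 269 CPM in WT (0.50; edgeR adjusted p = 0.147). Hadhb had 0.27 (edgeR adjusted p = 0.464) and overlapping groups, and Echs1, the short-chain hydratase, had 0.41 with overlapping groups.

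Unsaturated chains need extra enzymes that move or reduce double bonds, and of the 5 measured here Decr2 rose. Decr2, the peroxisomal dienoyl-CoA reductase, was at 276, 214 and 283 CPM in Cys52Ser, against 127, 133 and 173 CPM in WT. The groups did not overlap, and the log2 fold change was 0.84 ± 0.17 (SE; edgeR adjusted p = 0.0434). Its mitochondrial counterpart Decr1 had 0.44 (edgeR adjusted p = 0.170). Eci2, a peroxisomal and mitochondrial enoyl-CoA isomerase, was at 267, 245 and 312 CPM in Cys52Ser, against 120.0, 163 and 201 CPM in WT (0.76; edgeR adjusted p = 0.0785). The mitochondrial isomerase Eci1 had 0.47 (edgeR adjusted p = 0.106). The dienoyl-CoA isomerase Ech1 had 0.37 (edgeR adjusted p = 0.269). On the CPM scale all 5 genes were higher in every Cys52Ser library than in any WT library, while on FPKM the groups overlapped for Decr1, Eci1 and Ech1.

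Peroxisomal oxidation was covered by 11 genes, with 2 higher and none lower. All 11 fold changes were positive with TMM and 7 with library totals alone. Abcd3, an abundant transporter that brings acyl-CoA into the peroxisome, was at 508, 486 and 588 CPM in Cys52Ser, against 235, 276 and 329 CPM in WT. It rose 1.88-fold, with a log2 fold change of 0.91 ± 0.17 (SE; edgeR adjusted p = 0.0330). Its relative Abcd2 was at 60.7, 49.4 and 68.2 CPM in Cys52Ser, against 26.3, 41.8 and 29.0 CPM in WT, also without overlap (0.88 ± 0.20, SE; edgeR adjusted p = 0.0559).

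Alpha-oxidation removes 1 carbon from branched chains such as phytanic acid, and its enzymes Phyh and Hacl1 were both higher in every Cys52Ser library. Hacl1, the lyase of this route, was at 142, 90.9 and 114 CPM in Cys52Ser, against 67.7, 47.7 and 67.5 CPM in WT. It rose 1.898-fold, with an edgeR adjusted p of 0.049996 that lies at the threshold. Another gene model overlaps it on the same strand and Btd on the opposite strand, so its counts are uncertain. Phyh, the hydroxylase, had a log2 fold change of 0.62 (edgeR adjusted p = 0.105) and the highest mean FPKM of the 42 genes in Cys52Ser, 654 ± 54.8, against 543 ± 47.6 in WT (SD, n = 3 each). In WT the highest was Scp2, a thiolase and sterol carrier gene, at 659 ± 33.9 FPKM, against 620 ± 32.2 FPKM in Cys52Ser (SD, n = 3 each). In Cys52Ser the means of Phyh and Scp2 differed by less than the SD of Phyh.

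None of the peroxisomal oxidases and multifunctional enzymes passed. Acox2, the oxidase for branched chains and bile acid precursors, was at 179, 186 and 253 CPM in Cys52Ser, against 137, 121 and 133 CPM in WT (log2 fold change 0.66; edgeR adjusted p = 0.0612). Acox3, another branched-chain oxidase, had 0.02 with a 95% confidence interval from -0.35 to 0.38. Hsd17b4, the D-bifunctional enzyme, had 0.61 (edgeR adjusted p = 0.0790) and no overlap between groups. Ehhadh, the L-bifunctional enzyme and a classical PPAR-alpha target, was at 345, 339 and 409 CPM in Cys52Ser, against 227, 518 and 256 CPM in WT. WT replicate 2 exceeded all other libraries, and the other WT libraries lay below all Cys52Ser libraries. The log2 fold change of Ehhadh was 0.13 (edgeR adjusted p = 0.861) and 0.54 without WT replicate 2 (edgeR adjusted p = 0.123).

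The peroxisomal thiolases Acaa1a and Acaa1b are close paralogs that can share reads, so the division between them is uncertain. Acaa1a was at 281, 276 and 375 CPM in Cys52Ser, against 191, 187 and 223 CPM in WT (log2 fold change 0.63; edgeR adjusted p = 0.0714). Acaa1b, the form that PPAR-alpha agonists induce in mouse liver, was at 862, 925 and 1340 CPM in Cys52Ser, against 775, 911 and 887 CPM in WT. Its groups overlapped (log2 fold change 0.28; edgeR adjusted p = 0.476), as did those of Scp2 (0.26; edgeR adjusted p = 0.446).

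At the exit of the pathway neither gene passed. Bdh1, which reduces acetoacetate to beta-hydroxybutyrate, was at 373, 375 and 502 CPM in Cys52Ser, against 273, 356 and 303 CPM in WT. The groups did not overlap, though the gap was small, and the log2 fold change was 0.42 ± 0.17 (SE; edgeR adjusted p = 0.208). Pdk4, the kinase that shuts off pyruvate dehydrogenase when fat is burned, was at 15.6, 26.4 and 25.4 CPM in Cys52Ser, against 35.7, 23.6 and 27.1 CPM in WT. Its groups overlapped, with a log2 fold change of -0.36 ± 0.24 (SE; edgeR adjusted p = 0.442). Pdk4 was 1 of only 3 of the 42 genes with a negative value, beside Crot and Slc27a1.

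With 1 library left out, each fit had 2 mice in 1 group and fewer of the 42 genes passed. None passed without Cys52Ser replicate 1, Cys52Ser replicate 3 or WT replicate 2. Without WT replicate 1 only Crot did. Without Cys52Ser replicate 2, 4 rose (Acsl1, Acad11, Decr2 and Hacl1) and Crot fell, and without WT replicate 3, 4 rose (Acsl1, Acad11, Decr2 and Abcd3) and Crot fell. Over these 6 fits the log2 fold change of Acsl1 ran from 1.16 to 1.47 (edgeR adjusted p from 0.0368 to 0.0880) and that of Crot from -1.05 to -0.84 (0.0326 to 0.0903). Those of Slc27a2, Cpt2 and Slc25a20 ran from 0.67 to 0.96, 0.51 to 0.72 and 0.55 to 0.78, with edgeR adjusted p of at least 0.0532, 0.0708 and 0.0561.

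Genes that work beside the 42 were read from lists of the same pathway, whose median log2 fold changes were all lower with library totals alone. Of 28 tested genes in a list of other fatty acid oxidation and ketone genes, 3 rose and none fell (median log2 fold change 0.35 with TMM and -0.01 with totals). Slc27a5, which activates bile acids and very long chains in liver, rose 2.28-fold to 532 ± 70.1 CPM in Cys52Ser, against 234 ± 47.5 CPM in WT (SD, n = 3 each; edgeR adjusted p = 0.0243). Acsm3, a medium-chain acyl-CoA synthetase, rose 2.02-fold (edgeR adjusted p = 0.0267). Of 9 genes around malonyl-CoA, the metabolite that blocks Cpt1a, none rose and 1 fell. This was Prkab2, a regulatory subunit of AMP-activated kinase, at 6.03 ± 1.07 CPM in Cys52Ser and 12.4 ± 0.80 CPM in WT (SD, n = 3 each; edgeR adjusted p = 0.0267). The 9 log2 fold changes ran from -1.04 to 1.34 with TMM, and 7 of them were positive (2 with library totals alone).

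PPAR-alpha itself was among the genes that rose. Of 14 genes for this receptor, its partners and coactivators, 3 rose and none fell (1 and 2 with library totals alone). Ppara was at 77.3, 60.6 and 68.7 CPM in Cys52Ser, against 25.2, 17.8 and 31.4 CPM in WT. The lowest Cys52Ser library lay far above the highest WT library, and the gene rose 2.78-fold (log2 fold change 1.47 ± 0.21, SE; edgeR adjusted p = 0.0208). Esrra, an orphan receptor that drives mitochondrial genes, rose 1.51-fold (edgeR adjusted p = 0.0389). Rxra, the partner of PPAR-alpha, rose 1.55-fold at the threshold (edgeR adjusted p = 0.049996). Ppargc1a, the coactivator PGC-1alpha, had a log2 fold change of 0.37 (edgeR adjusted p = 0.557).

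PPAR-alpha targets outside oxidation gave 6 higher and 1 lower of 27 tested, with a median log2 fold change of 0.54 (0.22 with library totals alone). Those with the smallest p were Plin5, Acot4, Pex11a and Acot3. Plin5, a lipid droplet protein that ties droplets to mitochondria, was at 94.1, 111 and 154 CPM in Cys52Ser, against 44.0, 43.5 and 43.7 CPM in WT (edgeR adjusted p = 0.0169). Acot4, a peroxisomal acyl-CoA thioesterase, rose 3.40-fold (edgeR adjusted p = 0.0174), and Pex11a, which divides peroxisomes, 1.94-fold (edgeR adjusted p = 0.0267). The thioesterase Acot3 passed as well, and it has close paralogs. The gene that fell was Cd36, a fatty acid receptor also carried by macrophages and endothelium, at 237 ± 15.6 CPM in Cys52Ser and 395 ± 41.8 CPM in WT (SD, n = 3 each; edgeR adjusted p = 0.0328). Of 9 genes of the pyruvate dehydrogenase complex and its regulators, Pdk1 rose 2.18-fold (edgeR adjusted p = 0.0340) and Dlat 1.44-fold (edgeR adjusted p = 0.0487).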

How the data were processed

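Per the file headers, the authors deposited 1 table with a count and an FPKM value for each gene and library. The counts are whole numbers. Per the submitters' processing notes, the tools were HISAT2 2.0.4, StringTie 1.3.4d, cutadapt 1.9 and UMI-tools, beside edgeR and DESeq2, with no role given. Those notes list mm9, but 89.9% of the identifiers found in GENCODE M21 have identical GRCm38 coordinates there, so positions are GRCm38. No source used here says if reads were counted by strand. The labels' protocols give oligo(dT) selection and strand-marked libraries.

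Counts were tested with edgeR 4.0.16 in R 4.3.3 (filterByExpr with a minimum count of 10, TMM, robust quasi-likelihood fit, genotype as the only term), with Benjamini-Hochberg adjustment over all tested genes and a threshold of 0.05. The SE is the log2 fold change over the square root of F. A single gene's exact permutation test of 3 against 3 cannot go below p = 0.1 and was not used for calls. The 42 genes and the lists were chosen with earlier results of these data known. The genes described in full are the 9 that passed, the next by p up to 16, and Cpt1a, Acadm, Hadha, Ehhadh, Bdh1 and Pdk4; other lists are given by counts and up to 4 genes, and Cd36 was named beside them as the 1 gene of its list that fell. A few genes on the other lists are counted but left unnamed here. Alternatives were 3 other scalings, 2 filters, a non-robust fit, DESeq2 1.42.0, a replicate block, each library left out, and limma 3.58.1 on log2(FPKM + 0.5) and variants. No 2 libraries agreed within sampling noise.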

Additional observations from a re-analysis of the deposited data

How the results depend on the processing

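Of 42 genes, 8 rose and 1 fell, with a median log2 fold change of 0.48. Over all 18648 tested genes 928 changed (469 higher and 459 lower). RLE or upper quartile factors and other count filters kept the counts of changed genes within 1.5 times. With library totals alone, 3017 genes changed (293 higher and 2724 lower), 5 of the 42 rose, 2 fell and the median was 0.13. The non-robust fit gave 818 changed genes (410 higher and 408 lower), with 5 of the 42 higher and 1 lower. DESeq2, with a p-value for 28523 genes, gave 2493 changed genes (1314 higher and 1179 lower). Of the 42, 25 were then higher and 2 lower. Over 13938 genes, limma on log2(FPKM + 0.5), log2(FPKM + 0.1) and log2(FPKM + 1) gave 3250, 3271 and 3236 changed genes. Of those, 11.1%, 11% and 11.2% were higher. Each of these fits gave 6 of the 42 higher and 2 lower, with medians of 0.14, 0.14 and 0.13. Without a filter, limma gave 1265 changed genes of 28601 (174 higher and 1091 lower). Of the 42, 3 were then higher and 1 lower, with a median of 0.14. With each library left out in turn, changed genes ran from 28 to 790, higher from 0 to 4, lower from 0 to 1 and the median from 0.33 to 0.56. Acadm turned to -0.0328 with library totals and, in the limma fits with 0.5, 0.1 and 1 added and without a filter, to -0.0242, -0.0243, -0.0241 and -0.0242. Ehhadh turned to -0.23 with totals, to -0.13 in those limma fits, and ran from -0.14 (without WT replicate 1) to 0.54 (without WT replicate 2) with a library left out, at -0.09 without WT replicate 3. With FPKM first divided by TMM factors, limma on log2(FPKM + 0.5) gave 960 changed genes (514 higher and 446 lower) of 13890. In that fit 8 of the 42 rose, 1 fell and the median was 0.48, with Acadm at 0.33 and Ehhadh at 0.22. The cause of these sign changes was not tested.

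The replicate numbers were not shown to pair the mice: the deviations of same-numbered libraries correlated at 0.020, 0.173 and 0.080 over genes, and not every library correlated best with its own number. With the replicate block, 729 genes changed, 7 of the 42 rose and 1 fell: of the 9 calls 7 were kept, those of Slc27a2 and Cpt2 were not made (edgeR adjusted p = 0.0631 and 0.0516) and Acaa1a was called higher (0.0487). The common biological coefficient of variation was 0.358, with 3 mice a group.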

Other observations

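WT replicate 2, the library with the highest WT level of Ehhadh, was also high for some PPAR-alpha targets, and those named here were chosen after their values were seen. Of 27 tested targets outside oxidation, 15 had their highest WT level in replicate 2, 4 had their lowest there, and 4 were higher there than in all other libraries. Cyp4a14, a fatty acid hydroxylase, was at 347, 437 and 546 CPM in Cys52Ser, against 118, 609 and 186 CPM in WT. Acot2, a mitochondrial thioesterase, was at 13.6, 12.6 and 15.7 CPM in Cys52Ser, against 7.196, 27.95 and 8.58 CPM in WT. Fgf21, a hormone released by the liver under PPAR-alpha, was at 14.4, 14.2 and 15.8 CPM in Cys52Ser, against 28.4, 97.3 and 40.9 CPM in WT, and had a log2 fold change of -1.91 (edgeR adjusted p = 0.0651). For Fgf21 every Cys52Ser library was below every WT library, while Ppara and Plin5 had the opposite order of groups. Of the 42 oxidation genes, 21 had their highest WT level in replicate 2. The matching shares over all tested genes were not computed, so these counts do not show a trait of the oxidation genes or the targets.

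Lpin1, a coactivator of PPAR-alpha that is also a phosphatidate phosphatase, varied widely within WT. It was at 117, 172 and 206 CPM in Cys52Ser, against 32.2, 96.1 and 236 CPM in WT. Angptl4, a lipase inhibitor and PPAR target, was at 148, 162 and 213 CPM in Cys52Ser, against 49.9, 105 and 206 CPM in WT. Neither difference passed (edgeR adjusted p = 0.762 and 0.579).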
